A study of Mus musculus with 2 samples.

Results

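The imprinted genes described here are 37 mouse genes, among them H19, that are expressed mainly or only from the allele inherited from 1 parent. They were taken from the array by gene name: every non-control probe whose name in the scanner files is that of a listed gene was kept, which gave 80 probes for 37 of the 37074 gene names on the array. RNA of dorsal root ganglion (DRG) neurons, the sensory neurons that serve the skin and muscles, was hybridised to 1 single-colour Agilent array for each of a pair of genotypes. One sample was Dock8-/- and the other Dock8+/-, both on strain C57BL/6 and both carrying the (tcr)AND Tg transgene, a T cell receptor transgene. The labels give the Dock8-/- sample a high level of the itch cytokine IL-31 and the Dock8+/- sample a low level. The comparison asks how gene expression in these neurons differs with Dock8 genotype. DOCK8 is a signalling protein of immune cells. There is no Dock8+/+ sample and no sample without the transgene, and age, sex and the number of pooled animals are not given in the sources used here.

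With 1 array per genotype there is no replicate check, so no test, p-value or standard error exists, and each difference is between a pair of samples. The list was put together with differences from this same comparison known, H19 above all, so the values of its members are descriptions. The array reads the total transcript of a gene and does not separate the alleles. Less RNA per cell and fewer cells of a type cannot be told apart in such bulk RNA.

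Imprinted genes as a rule depend on a methylation mark, set in the egg or the sperm, that differs between the parental copies, and 1 copy is silenced. Most such genes lie in clusters, each with a control region that governs genes of both kinds: at the H19-Igf2 cluster the maternal copy makes the noncoding RNA H19 and the paternal copy makes the growth factor Igf2. Many imprinted genes act on fetal growth, are lowered after birth, and stay active in brain, muscle or endocrine tissue. Several of the paternally expressed genes, Ndn, Magel2, Snrpn, Peg3 and Nnat among them, are known for their expression in neurons.

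The probes of the H19 and Meg3 noncoding RNAs and of Kcnq1ot1 are shown because some of the largest differences came from them. All are 60 bases long, positions are on mouse build mm9 as in the scanner files, and bases in capitals are those in runs of at least 20 that also occur in the promoter sequence of another gene (250 bases before to 50 after its start, RefSeq, GRCm38.p6, either strand). The brighter H19 probe lies at chr7:149761492-149761551 and the dimmer one at chr7:149762173-149762232, both on the minus strand.
H19, brighter probe: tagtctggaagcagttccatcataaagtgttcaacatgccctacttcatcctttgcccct
H19, dimmer probe: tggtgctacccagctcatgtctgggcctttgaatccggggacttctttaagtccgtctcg
Meg3, brightest probe: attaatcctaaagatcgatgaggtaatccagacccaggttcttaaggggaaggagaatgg
Kcnq1ot1, brightest probe: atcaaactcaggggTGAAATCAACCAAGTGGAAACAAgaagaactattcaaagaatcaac
Kcnq1ot1, second brightest probe: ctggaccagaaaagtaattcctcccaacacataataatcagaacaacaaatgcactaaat
The Meg3 probe lies at chr12:110799833-110799892 on the plus strand, and the Kcnq1ot1 probes at chr7:150409006-150409065 and chr7:150410464-150410523 on the minus strand. The brightest Kcnq1ot1 probe shares 23 bases with the promoter of 1 other gene, and neither H19 probe shares such a run (0 bases each).

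H19 is also the host of a microRNA gene, and the noncoding RNAs of the Dlk1-Dio3 cluster hold many more. In RefSeq (GRCm38.p6), 21 microRNA genes with 40 mature sequences lie inside 8 of the 37 genes on the same strand, 10 of these microRNA genes in Mirg, 3 in Rian and 1 in H19. The pair made from H19 (chromosome 7, minus strand) is shown with its seeds, bases 2 to 8, in capitals, and so are the 2 mature sequences of Mirg that share a seed, the only such group among the 40.
mmu-miR-675-5p: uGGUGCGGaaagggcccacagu
mmu-miR-675-3p: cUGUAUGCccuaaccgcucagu
mmu-miR-453: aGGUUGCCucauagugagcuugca
mmu-miR-496a-5p: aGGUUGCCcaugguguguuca
The array values below are of the host transcripts. The mature microRNAs themselves were not measured.

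The share of probes read well above background was 50.7% in Dock8-/- and 56.9% in Dock8+/-, and the arrays' 75th percentiles of processed intensity stood at 145.6 in Dock8-/- and 303.8 in Dock8+/-. Differences below are therefore log2 intensities relative to each array's 75th percentile, Dock8-/- minus Dock8+/-, so a gene of equal intensity on both arrays stands 1.06 above 0. Spots of the same probe differed little (SD of a difference 0.0637), whereas probes of the same gene differed by a pooled SD of 0.597 over 6164 genes and 0.538 over 17 of the imprinted genes. All genes shift by -1.84 when the arrays are scaled by spike-in transcripts instead, so every direction given is relative to the bulk of transcripts. All 5 Dock8 probes were dim, with 0 read well above background in Dock8-/- and 1 in Dock8+/- (intensity 6.87 in Dock8-/- and 20.5 in Dock8+/-), which leaves the genotype labels unchecked.

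A gene counts as measured here if both arrays read its brightest probe without a purine repeat well above background, as they did for 29 of the 37 imprinted genes. Of these 29, 3 were at least 2-fold lower in Dock8-/-, H19, Igf2 and Sgce, a share of 10.3% against 7.07% of all 18538 measured gene names. Another 4, Ascl2, Meg3, Kcnq1ot1 and Asb4, were at least 2-fold higher, a share of 13.8% against 8.74% of all measured genes. The median difference was 0.05 over the imprinted genes and 0.03 over all measured genes, and 17 of the 29 lay within 0.538 of 0. Below 0 lay 13 of the 29, or 44.8%, against 48.3% of all measured genes. Since the list was chosen on this comparison, nothing is read from these shares. Just inside the 2-fold mark lay Asb4 at 1.05 and Sgce at -1.09, and just outside it Osbpl5 at -0.94 and Usp29 at 0.85.

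**Figure D1:**
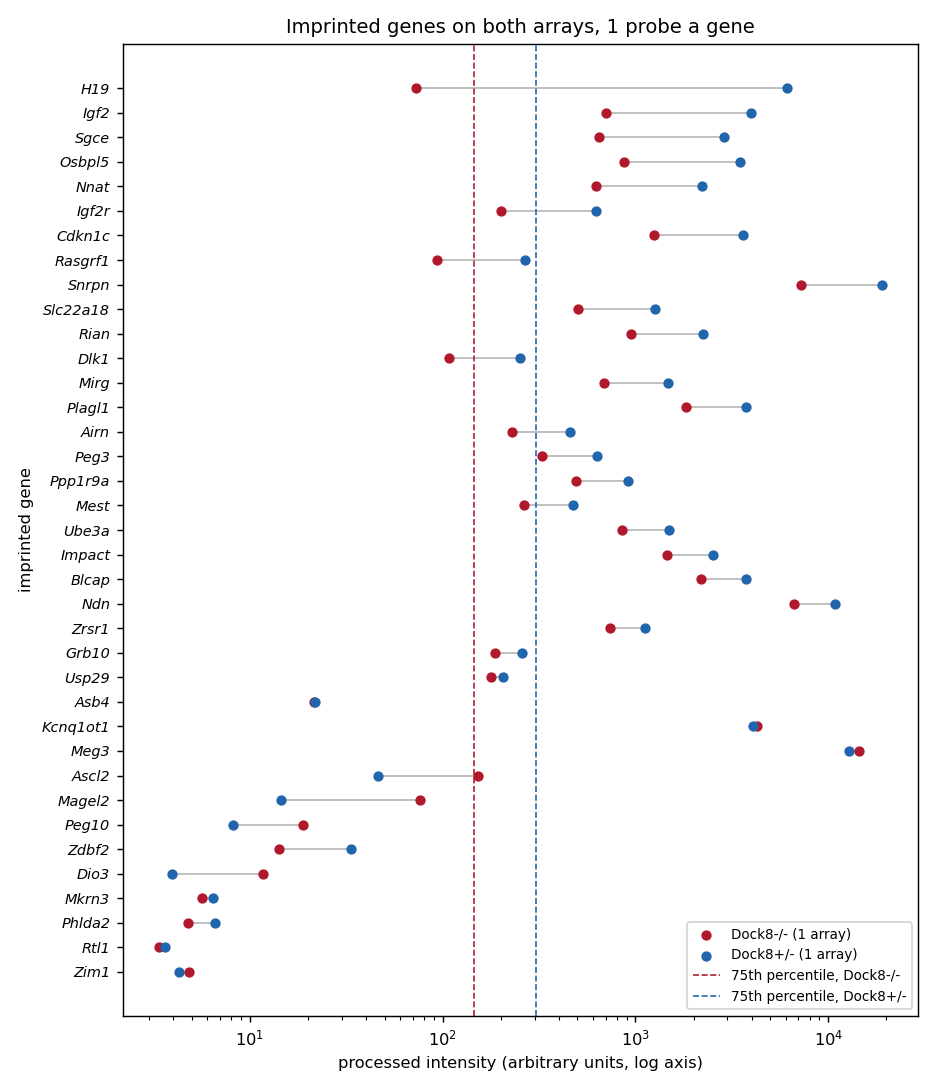
Processed intensity (arbitrary units, log axis) of each of the 37 imprinted genes on the Dock8-/- array (red) and the Dock8+/- array (blue), 1 probe a gene and 1 array a genotype, with dashed lines at each array's 75th percentile (145.6 for Dock8-/- and 303.8 for Dock8+/-). Genes run by their log2 difference with H19 at the top, followed by the genes read on 1 array or on neither; most blue points lie right of the red ones by about the gap of the dashed lines, and H19 has the widest gap.

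H19 had the lowest difference of any measured gene, rank 1 of 18538. Its brighter probe read 72.9 in Dock8-/- and 6087 in Dock8+/-, a difference of -5.32 on the log2 scale or 40.0-fold lower. The second probe read 3.83 in Dock8-/-, not well above background, and 325.8 in Dock8+/-, which makes it at least 9.69-fold lower in Dock8-/-. Both probes of this RNA, a growth-restraining noncoding transcript of fetal tissues and muscle, were thus far apart between the arrays. Under the 15 settings that give single-gene values, H19 stayed between -7.16 and -4.59 and was the lowest of the imprinted genes in each. Many of these settings keep its probe and scaling, so they could not change its value.

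Igf2, the fetal growth factor made from the paternal copy of the same cluster, was lower too. It read 703.2 in Dock8-/- and 3991 in Dock8+/-, a difference of -1.44 or 2.72-fold lower, and its second probe read 119.6 in Dock8-/- and 626.1 in Dock8+/-, a difference of -1.33. H19 and Igf2 come from opposite parental alleles and lay on the same side of 0 here. Igf2r, the receptor that clears IGF2 from the cell surface and that is made from the maternal copy outside neurons, read 200.01 in Dock8-/- and 626.84 in Dock8+/-, at -0.59. Its antisense RNA Airn, which silences Igf2r on the paternal copy, read 228.3 in Dock8-/- and 458.8 in Dock8+/-, at 0.05. A second Airn probe was at -0.06, and 29 of its bases are shared with promoters of 3 other genes.

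Within 500 kb of the brighter H19 probe on mm9, 24 other named genes were measured, with a median of -0.02. Of these, 6 were at least 2-fold lower, 25% against 7.07% of all measured genes, and 1 was higher, 4.17% against 8.74%. This window was chosen after the values were seen. The 6 were Tnnt3 at -4.02 and Tnni2 at -3.68, troponin subunits of fast skeletal muscle, Lsp1 at -2.12, a leukocyte protein, Ifitm10 at -1.60, Igf2, and Tspan32 at -1.26, a tetraspanin of blood cells. Between Tnnt3 and H19 lie Mrpl23, a mitochondrial ribosomal protein gene, which read 2566 in Dock8-/- and 6863 in Dock8+/- (-0.36), and Nctc1, a noncoding RNA at 0.74. On the side of Igf2, its antisense transcript Igf2os stood at 0.01 and the insulin gene Ins2 at 0.41. Of the lower genes, Tnni2, Lsp1 and Tnnt3 lay side by side, with genes under 2-fold between them and H19. Furthest out on that side, the named genes from Dusp8 to Krtap5-4 stood at 0.24 to 0.84.

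The Kcnq1 cluster lies next to the H19-Igf2 cluster and is controlled by the paternal antisense RNA Kcnq1ot1, which silences its neighbours on that copy. Kcnq1ot1 read 4285 in Dock8-/- and 4068 in Dock8+/-, near equal in intensity and so at 1.14, or 2.20-fold higher relative to the 75th percentile. Its other measured probes stood at 0.66, 0.82 and 1.06. Without the brightest probe, part of which occurs in another gene's promoter, Kcnq1ot1 was at 0.82, under 2-fold, and with spike-in scaling it was at -0.70.

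Among the maternally expressed genes of that cluster the values went both ways. Ascl2, a basic helix-loop-helix transcription factor of placenta and of some adult stem cells, read 151.7 in Dock8-/- and 46.1 in Dock8+/-, at 2.78 or 6.87-fold higher. By brightest probes it was the only 1 of the 29 genes above 3-fold higher, and it ranked 31 from the top of all measured genes. It rests on a single probe, since its other probe read 11.6 in Dock8-/- and 8.02 in Dock8+/-, not well above background on either array. Cdkn1c, the cyclin-dependent kinase inhibitor p57Kip2, read 1244 in Dock8-/- and 3613 in Dock8+/-, at -0.48. Slc22a18, a transporter of the organic cation family, was at -0.26, and its dimmer probe was at least 1.57-fold lower.

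Osbpl5, an oxysterol-binding protein-like lipid transfer protein, had probes that disagreed. Its brightest probe read 869.8 in Dock8-/- and 3481 in Dock8+/-, at -0.94, while dimmer ones stood at 0.56 and 1.81. The mean over its probes was 0.48, so its direction depends on the probe. Phlda2, a restrainer of placental growth, was dim on both arrays.

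In the Dlk1-Dio3 cluster the noncoding RNAs come from the maternal copy and the protein-coding genes from the paternal copy. Meg3, a long noncoding RNA, read 14351 in Dock8-/- and 12760 in Dock8+/-, at 1.23 or 2.35-fold higher. Its other probes stood at 0.86, 0.77, 0.57 and -0.50, the last at 267.1 in Dock8-/- and 789.1 in Dock8+/-. The mean over the 5 probes was 0.59, and with spike-in scaling Meg3 was at -0.61.

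The transcripts further along the same maternal copy were closer to 0. Rian, the host of C/D box snoRNAs, read 950.6 in Dock8-/- and 2252 in Dock8+/-, at -0.18, with a second probe at 0.30. Mirg, the host of a microRNA cluster, read 690.8 in Dock8-/- and 1468 in Dock8+/-, at -0.03, with a second probe at 0.49. Between probes of either gene the sign changed, so neither has a settled direction. Dlk1, a paternally expressed transmembrane protein with EGF-like repeats, read 107.7 in Dock8-/- and 250.6 in Dock8+/-, at -0.16, and its dimmer probe was at least 1.45-fold lower. Rtl1, derived from a retrotransposon, and Dio3, the deiodinase that inactivates thyroid hormone, were dim on both arrays.

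**Figure D2:**
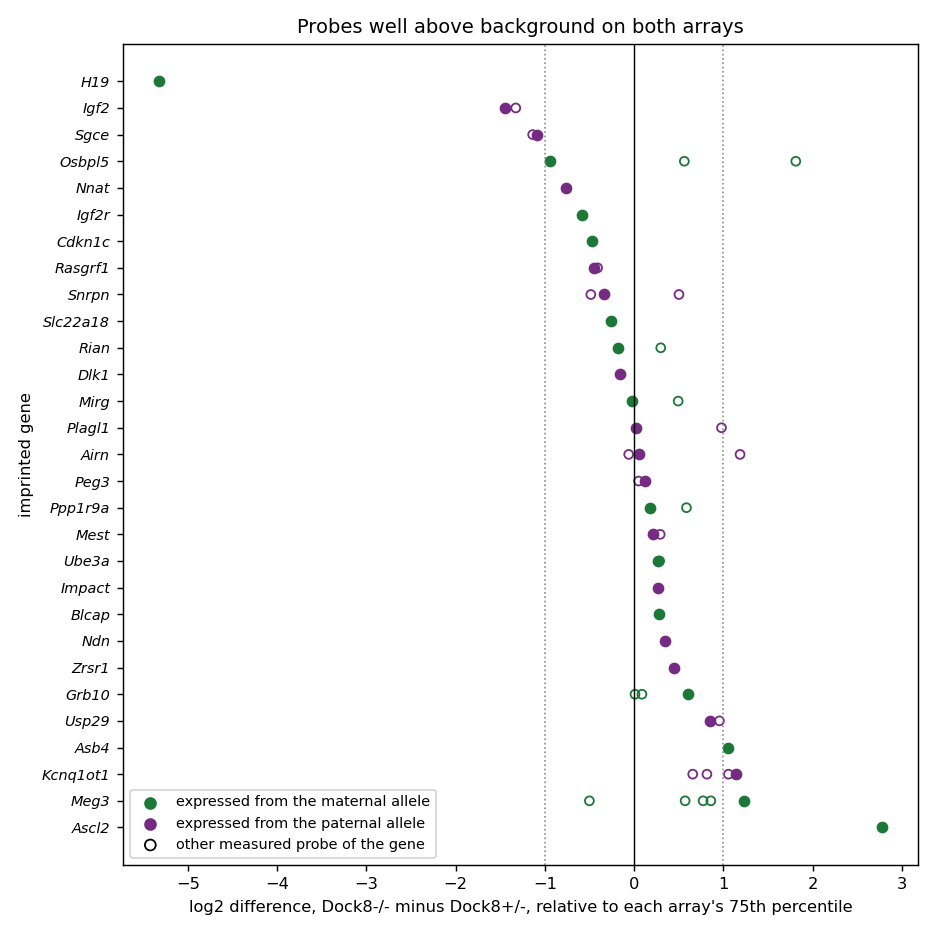
Log2 difference, Dock8-/- minus Dock8+/-, of every probe well above background on both arrays for the 29 measured imprinted genes; filled circles are the brightest probes, open circles the other probes, green is maternal and purple paternal expression, and dotted lines mark 2-fold. Probes of Meg3, Osbpl5, Snrpn and Plagl1 spread widely, while those of Igf2 and Sgce lie close together. The spread of Airn comes from its purine-repeat probe at 1.19, which is drawn here but was left out of the gene values. The second H19 probe is not drawn, as it was dim on the Dock8-/- array.

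Sgce, which encodes epsilon-sarcoglycan of the dystrophin-associated complex and is paternally expressed in the Peg10 cluster, was the remaining gene at least 2-fold lower. It read 648.4 in Dock8-/- and 2885 in Dock8+/-, at -1.09 or 2.13-fold lower, and its second probe was at -1.14. After normexp background correction it was at -0.99, just under 2-fold. Within 500 kb of Sgce on mm9 the fibroblast collagen gene Col1a2 read 5141 in Dock8-/- and 51491 in Dock8+/-, at -2.26 by its brightest probe. Its measured probes ranged up to 0.05. The O-acetyltransferase gene Casd1 was at 0.46.

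Of the other genes of that cluster, Ppp1r9a, which encodes neurabin, an actin-binding protein of synapses, was at 0.18. Asb4, a SOCS box protein, read 21.5 in Dock8-/- and 21.8 in Dock8+/-, close to the lowest intensity read well above background, 16.1 in Dock8-/- and 17.4 in Dock8+/-. Its 1.05 was 0.23 after normexp background correction and -0.79 with spike-in scaling. Peg10, derived from a retrotransposon, read 18.8 in Dock8-/- and 8.18, not well above background, in Dock8+/-, at least 2.26-fold higher. Such a bound reached 2-fold for 99% of the 509 genes read on the Dock8-/- array only, so it says little about Peg10.

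The Snrpn cluster is the mouse counterpart of the human Prader-Willi and Angelman region. Snrpn, which encodes the neuronal splicing protein SmN, had 10 spots on each array, reading 7220 ± 288 in Dock8-/- and 19059 ± 488 in Dock8+/- (SD over spots of the same array). Its difference was -0.34, with other probes at -0.48 and 0.50. Ndn, which encodes necdin, a MAGE protein of postmitotic neurons, read 6608 in Dock8-/- and 10879 in Dock8+/-, at 0.34. These paternally expressed neuronal genes were therefore on either side of 0 by less than the spread between probes.

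Magel2, another MAGE gene of that cluster, read 76.0 in Dock8-/- and 14.6, not well above background, in Dock8+/-. It was at least 9.14-fold higher in Dock8-/- by its only probe. A bound of 2-fold was reached by 99% of the 509 genes read on the Dock8-/- array only. Ube3a, the ubiquitin ligase that neurons express from the maternal copy, read 856.5 in Dock8-/- and 1488 in Dock8+/-, at 0.26. Its other probe above background on both arrays was at 0.29, while the dimmest, at 16.9 and dim in Dock8-/- and 49.4 in Dock8+/-, was at least 1.40-fold lower. Mkrn3, a makorin ring finger gene, was dim on both arrays.

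The remaining genes lay under 2-fold. In the Peg3 cluster, the paternally expressed zinc finger gene Peg3 read 328.3 in Dock8-/- and 630.9 in Dock8+/-, at 0.12. A second Peg3 probe was at 0.05, and the dimmest, not well above background in Dock8+/-, at least 2.36-fold higher. Usp29, a ubiquitin-specific protease gene, read 177.6 in Dock8-/- and 206.3 in Dock8+/-, at 0.85, with a second probe at 0.96. Zim1, the maternally expressed zinc finger gene beside them, was dim on both arrays. Nnat, which encodes the membrane proteolipid neuronatin of neurons and endocrine cells, read 626.6 in Dock8-/- and 2219 in Dock8+/-, at -0.76. Blcap, in an intron of which Nnat lies, read 2177 in Dock8-/- and 3756 in Dock8+/-, at 0.27. That pair of overlapping genes, expressed from opposite alleles, stood on opposite sides of 0.

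Among genes outside these clusters, Grb10, an adaptor that restrains insulin and IGF receptors and is made from the paternal copy in neurons, was at 0.61 by its brightest probe and at 0.01 and 0.09 by the others. Plagl1, the zinc finger regulator ZAC1, was at 0.02 by its brightest probe and at 0.98 by its other measured probe. Mest, a hydrolase-like gene, was at 0.22. Impact, an inhibitor of the kinase GCN2, was at 0.27, Zrsr1, a splicing factor gene within an intron of Commd1, at 0.45, and Rasgrf1, a Ras exchange factor of neurons, at -0.45. These brightest-probe values span -0.45 to 0.61, about the spread between probes of the same gene. Zdbf2 read 14.2, not well above background, in Dock8-/- and 33.7 in Dock8+/-, and its bound gave no fold difference.

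Maternally and paternally expressed genes were then compared as classes. Of 16 maternally expressed genes 14 were measured, 1 at least 2-fold lower and 3 higher, with a median of 0.07 and a range from -5.32 to 2.78. Of 21 paternally expressed genes 15 were measured, 2 at least 2-fold lower and 1 higher, with a median of 0.05 and a range from -1.44 to 1.14. Among all measured genes, 7.07% were at least 2-fold lower and 8.74% higher. The class medians differed by 0.02, and both lay within 0.05 of the median of all measured genes. Without H19 the maternal median was 0.18. Leaving out genes whose parental bias depends on the tissue, such as Ube3a, Grb10 and Igf2r, the maternal median was -0.18 over 5 genes and the paternal median 0.09 over 14. No separation of the classes was seen by parental origin, and the 6 noncoding genes (median 0.01) and 23 coding genes (median 0.12) lay close together as well.

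**Figure D3:**
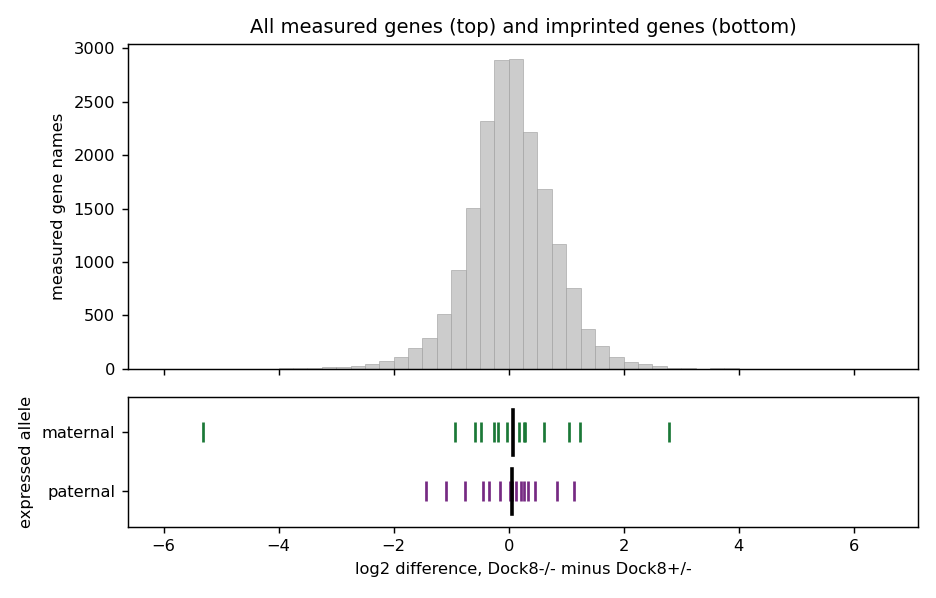
Number of measured gene names by log2 difference, Dock8-/- minus Dock8+/- (top, 18538 genes), and the same difference of the 14 maternally and 15 paternally expressed genes (bottom, 1 tick a gene, black bars at the medians of 0.07 and 0.05). H19 at -5.32 stands at the far left of all genes, and the ticks otherwise sit within the body of the distribution, apart from Ascl2 at 2.78.

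A further 42 genes, imprinted in at least some tissues, were looked at beside the 37. Whether they are imprinted in ganglia was not tested. Of the 42, 30 were measured, and their median was -0.10. At least 2-fold lower were 4 and higher 3, against 7.07% and 8.74% of all measured genes. The lower ones were Dcn, the proteoglycan decorin, at -1.47, Pon3, a paraoxonase, at -1.40, Tspan32 at -1.26 and Nap1l4, a nucleosome assembly protein, at -1.25. The second Nap1l4 probe was at 0.33, so its direction depends on the probe. The higher ones were Ddc, aromatic amino acid decarboxylase, at 3.53, Sfmbt2, a Polycomb group protein, at 1.33, and Begain, a postsynaptic density protein, at 1.18.

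Some of these share a cluster with the genes above. Ddc, the neighbour of Grb10, read 1043 in Dock8-/- and 188.0 in Dock8+/-. Begain, at the edge of the Dlk1-Dio3 cluster, read 819.9 in Dock8-/- and 755.1 in Dock8+/-. Of the genes beside the Kcnq1 and H19-Igf2 clusters, Th, tyrosine hydroxylase, was at -0.79 by its brightest probe and -2.06 by the other. Cd81, a tetraspanin, was at -0.56 (other probe -0.91), Tssc4 at -0.08 and Dhcr7, of cholesterol synthesis, at -0.85. The potassium channel gene Kcnq1 read 3.98, not well above background, in Dock8-/- and 35.3 in Dock8+/-, a bound of only 1.05-fold lower. Commd1, the host of Zrsr1, was at -0.79 by its brightest probe and 0.80 by the other. Pon2 of the Peg10 cluster was at -0.03, with other probes up to 0.82. Copg2 beside Mest was at -0.11, Atp10a of the Snrpn cluster at -0.17 and Slc22a3 beside Igf2r at -0.74.

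Genes listed for setting or keeping imprints were mostly near 0. Of 16 listed, 10 were measured, with a median of -0.06. At least 2-fold lower were 0 and higher 1, against 7.07% and 8.74% of all measured genes. Trim28, the corepressor recruited to imprinted control regions, read 1359 in Dock8-/- and 2841 in Dock8+/-, at -0.002, although its second probe was at -1.07, and Ctcf, the insulator protein of the H19-Igf2 control region, was at -0.21. The maintenance methyltransferase gene Dnmt1 was at 0.28. The higher one was Rbbp6, a ubiquitin ligase gene whose part in imprinting is not established, at 1.20, with probes from -1.14 to 1.36. Zfp57, the zinc finger protein that binds methylated control regions, read 34.4 in Dock8-/- and 4.32, not well above background, in Dock8+/-, at least 4.13-fold higher. A bound of 2-fold was reached by 99% of the 509 genes read on the Dock8-/- array only.

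RefSeq promoter sequences (300 bases, GRCm38.p6) were found for 31 of the 37 genes, 46 windows in all; H19, Cdkn1c, Rtl1, Sgce, Peg10 and Impact had none. The hexamer TGCCGC, bound by ZFP57 when methylated, occurred on either strand in 11 windows (23.9%), of Igf2, Meg3, Grb10, Snrpn and Nnat among others, against 11.6% of 32851 windows of all genes. The sequence GGGGCCCC, a motif of PLAGL1, occurred in 4 windows (8.70%), of Peg3, Usp29, Ppp1r9a and Rasgrf1, against 1.08% of all windows. Neither motif contains the other. The CpG content over that expected from base composition had a median of 0.587 in these windows and 0.384 in all windows. A match describes the letters of the window only.

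Markers of cell types moved with genotype on these arrays. Beside the counts below, 7.07% of all measured genes were at least 2-fold lower and 8.74% higher. Neuron markers were well above background on both arrays (8 of 8), with 0 at least 2-fold apart, a median of 0.13, and levels summed relative to the 75th percentile of 1042 in Dock8-/- and 1057 in Dock8+/-. Sensory neuron markers had a median of 0.07 over 7 genes, and their most abundant members were Calca at -0.02 (other probe 0.55) and Avil at 0.01 (other probe -0.91). Markers of other cells were present as well, so the RNA was not that of neurons alone.

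Skeletal muscle markers were measured for 5 of 11, all 5 at least 2-fold lower; their median was -3.94, with summed levels of 2.52 in Dock8-/- and 40.0 in Dock8+/-. A further 4 were read on the Dock8+/- array only and had a bound of at least 2-fold lower, as had 17.6% of the 2546 gene names read on that array only. Myh4 was read by its brightest probe on that array only, and Myh3 was dim on both. The 2 most abundant were Tnni2, at 90.9 in Dock8-/- and 2426 in Dock8+/-, and the myosin heavy chain Myh8, at 75.8 in Dock8-/- and 2475 in Dock8+/-. Fibroblast markers were at least 2-fold lower for 7 of 10 (median -1.87, sums of 368.5 in Dock8-/- and 1084 in Dock8+/-), with Dcn at -1.47 and Thy1 at -0.33 the most abundant by the mean of log2 values. Col1a2, at -2.26 by its brightest probe and up to 0.05 by its other probes, was above Thy1 in intensity on the Dock8+/- array. Macrophage markers were lower for 6 of 7 (median -1.79, sums of 31.6 in Dock8-/- and 130.8 in Dock8+/-), with Lyz2 at -2.87, and Csf1r at -0.65 by its brightest probe and 0.39 by the other.

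Among the other lists were satellite glia at a median of 0.72 (3 of 6 higher, 1 lower), Schwann cells at -0.38 (1 higher and 1 lower of 6), endothelial and mural cells at -0.45 (0 of 6), cartilage and bone at -0.77 (2 lower and 1 higher of 5) and adipocytes at -1.06 (2 of 3 lower). The other 2 adipocyte markers, Adipoq and Plin1, were read on the Dock8+/- array only and were at least 3.11-fold and 2.85-fold lower. H19, Igf2 and Sgce lay on the same side of 0 as the muscle, fibroblast and macrophage lists, and the part of these cells in the 3 differences was not tested. The neuron and sensory neuron lists had medians of 0.13 and 0.07, beside 0.07 for the maternally and 0.05 for the paternally expressed genes.

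**Figure D4:**
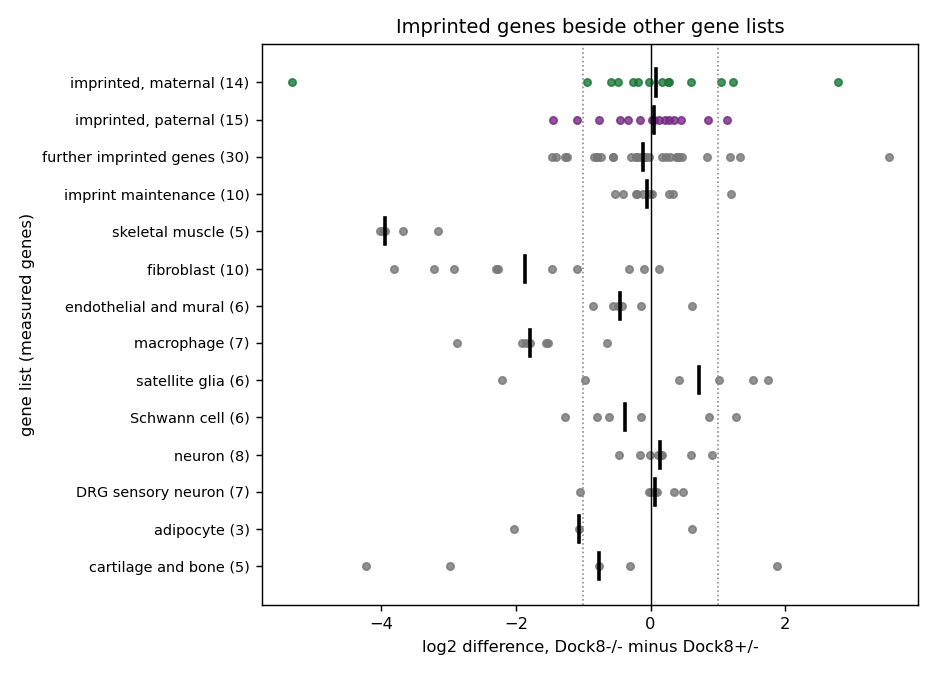
Log2 difference, Dock8-/- minus Dock8+/-, of each measured gene (points) and the median (black bars) for the maternally and paternally expressed genes and the other gene lists, with the number of measured genes in brackets and dotted lines at 2-fold. The muscle (median -3.94), fibroblast (-1.87) and macrophage (-1.79) lists lie left of 0, the neuron lists and both imprinted classes around 0.

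Values of single genes were recomputed under other settings of the processing. Across the 14 single-gene settings without spike-ins, H19 ranged from -5.36 to -4.59, Igf2 from -1.45 to -1.30, Sgce from -1.11 to -0.99 and Ascl2 from 1.56 to 2.81. Over the same settings Meg3 ranged from 0.59 to 1.26, Kcnq1ot1 from 0.82 to 1.24 and Asb4 from 0.23 to 1.08. Spike-in scaling turned Meg3, Kcnq1ot1 and Asb4 below 0 and left Ascl2 at 0.94. H19 and Igf2 were at least 2-fold lower under all 15. Many of these settings, such as the other filters on dim probes, kept the same probe and scaling. They left H19 at -5.32 by construction, so the 15 are not independent checks.

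**Figure D5:**
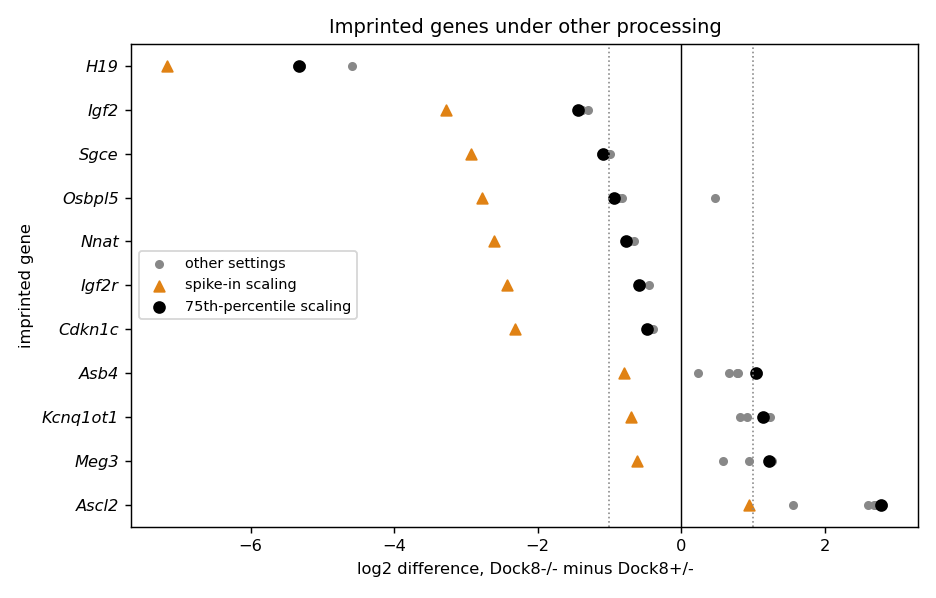
Log2 difference, Dock8-/- minus Dock8+/-, of 11 imprinted genes under the 75th-percentile scaling (black), spike-in scaling (orange triangles) and the other settings (grey), with dotted lines at 2-fold. H19 lies at -4.59 or lower in every setting, the spike-in triangles sit lower by 1.84 for each gene, and the grey point of Osbpl5 right of 0 is the mean over its probes.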

How the data were processed

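Spot intensity, linear and not yet normalised between arrays, was taken from the deposited scanner files, which the authors produced in Agilent Feature Extraction (version 10.7.1.1 per the file headers, 9.5.1.1 per the submitters' processing notes). The processed intensity, which the files report after background subtraction and detrending, was used. Per the labels' protocols, Isogen was used for RNA and a Low input Quick Amp kit for Cy3 cRNA. The deposited value table, used as an alternative, holds intensities that proved to be quantile normalised: 98.9% of sorted values were equal in both columns, each had a median of 27.9, and on the log2 scale each column correlated with its scanner file at 0.999 or more across probes. Its scale and direction follow from this match. No column was left unused (0).

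Spots of a probe were averaged on the log2 scale, leaving out non-uniform spots (1 on the Dock8-/- and 3 on the Dock8+/- array), and each array's 75th percentile over 56601 non-control probes was subtracted. No non-control spot was saturated (0 on each). A probe holding a run of 4 or more GA or GAA units was left out (1 of the 80, of Airn). A gene read on 1 array only has a bound, set against whichever is higher, the dim reading or the lowest intensity well above background on that array. All 80 probes kept their symbol when named by accession. The sequence of 1 probe is not reported here. The number of arrays limits the precision.

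The file headers place both arrays on 1 slide, so no batch could be split. Members, gene lists and the naming rule were chosen with earlier results of these data known. The rule names all 37 members, genes of the further imprinted and imprint maintenance lists that were at least 2-fold apart or share a cluster, Dock8, and the 2 most abundant markers per list, described for the lists discussed. Genes within 500 kb were named after their values were seen, and so were Trim28, Ctcf and Dnmt1. Alternatives (17 in all, with loess span 0.3, normexp offset 50, thresholds of 1.5-fold and 3-fold) used Python 3.11.15, R 4.3.3 and limma 3.58.1, and the script for differences was tested on simulated data.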

Additional observations from a re-analysis of the deposited data

How the results depend on the processing

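No paired analysis was possible because each genotype had 1 array, and no replicate could be left out. Spike-in scaling, which shifts all genes by -1.84, gave 24 imprinted genes at least 2-fold lower and 0 higher (87.3% and 0.129% of all measured genes), a maternal median of -1.77, a paternal median of -1.79 and H19 at -7.16, and it turned Kcnq1ot1 to -0.70, Meg3 to -0.61 and Asb4 to -0.79. Normexp background correction left 2 higher genes and H19 at -4.59, and over all measured genes it left 687 lower and 629 higher, against 1311 and 1621. The mean of a gene's probes left 2 higher genes and a maternal median of 0.25. Another detection flag gave 7 higher genes of 35 and medians of 0.22 (maternal) and 0.12 (paternal), with 2069 lower and 3326 higher over all genes. No filter on dim probes gave 8 higher of 37 and medians of 0.22 for both classes, against a median of 0.43, 2759 lower and 5352 higher over all genes; more genes enter under these filters. A threshold of 1.5-fold gave 6 lower and 6 higher genes (16.9% and 20.6% of all measured genes), and 3-fold gave 1 lower and 1 higher (2.29% and 2.26%). Without genes of tissue-dependent bias the maternal median was -0.18. Loess gave 1531 lower and 1221 higher genes over the array, quantile normalisation 1387 and 1373, the authors' deposited values 1405 and 1388, and each left 3 lower and 3 higher imprinted genes. Leaving out probes with runs found in other genes' promoters, a setting chosen after seeing the data, moved Kcnq1ot1 to 0.82. For the shifts not set by construction, the cause was not tested. Values of dim genes such as Asb4 are limited by signal over background.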
